A study of Mus musculus with 12 samples.

Results

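Old lymphoid-biased hematopoietic stem cells (Ly-HSCs) were compared with young myeloid-biased ones (My-HSCs), to ask whether the old lymphoid-biased cells lie close to the young myeloid-biased state or apart from it. The comparison takes 6 of the 12 RNA-seq libraries of the series, chosen by their labels alone, 3 of old Ly-HSCs and 3 of young My-HSCs. The old Ly-HSCs came from female C57BL/6J mice of 18 months, obtained from the National Institute on Aging. The young My-HSCs came from female C57BL/6J mice of 8 to 10 weeks by the sample labels and 8 to 12 weeks by the protocol, obtained from the Jackson Laboratory or UCLA. All cells were sorted as negative for mature lineage markers, positive for Sca-1 and c-kit, and negative for CD48 and CD135. Ly-HSCs were the CD150-low and My-HSCs the CD150-high fraction. The other 6 libraries, young Ly-HSCs and old My-HSCs sorted in the same way, are used below to place single genes. The 3 libraries of a group came from independent groups of mice, so the spread between them is a spread between groups of mice. Age, sorted fraction and the source of the mice all differ between the compared groups, and their effects cannot be told apart from these 6 libraries alone. Old and young mice had different sources throughout the series, so age and source cannot be told apart with all 12 libraries either. A difference by age below is one of age and source together.

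Hematopoietic stem cells renew themselves and form every blood lineage. Individual stem cells differ in how readily they form lymphoid or myeloid progeny, and the amount of CD150 on the surface separates fractions enriched for each behavior. In old mice the CD150-high fraction is known to expand relative to the CD150-low fraction, and aged stem cells carry a characteristic set of transcripts that includes adhesion and platelet-lineage genes.

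The values are FPKM, fragments scaled to transcript length and to the mapped fragments of each library, as normalized by the authors, so levels of different genes can be set side by side per length. Differences were tested with limma as log2(FPKM + 1), over the 10311 genes with 1 FPKM or more in 3 or more of these 6 libraries. A fold change below is on that scale and understates the change of genes with low values. A gene is called at a Benjamini-Hochberg (BH) adjusted p under 0.05 over all 10311 genes. Read totals are unknown. FPKM summed to 211455 to 228391 per library over the series, and the share of genes listed at 0 was 22.3%, 13.3% and 14.1% in the old Ly-HSC libraries and 26.1%, 20.3% and 19.3% in the young My-HSC libraries. A value of 0 is given as listed.

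Among the 6 libraries compared, 1 stood apart. Old Ly-HSC library 1 held transcripts of mature blood cells that the lineage depletion should remove. The neutrophil protease gene Mmp9 stood at 67.4 FPKM there, against 0.372 and 0.629 in old Ly-HSC libraries 2 and 3 and at most 1.38 in young My-HSCs. The erythrocyte anion exchanger Slc4a1 stood at 21.0 against 0.105 and 0.010 FPKM, and every young My-HSC library listed it at 0. The 2 measured granulocyte markers summed to 100.2 FPKM in old Ly-HSC library 1, 1.13 and 1.14 in the others and 0.025 to 1.41 in young My-HSCs. The 11 measured erythroid markers summed to 142.8, 31.7 and 20.7 FPKM in old Ly-HSCs and to 10.1 to 35.4 in young My-HSCs. The 3 measured mast cell, eosinophil and basophil markers summed to 28.8, 12.0 and 2.78 FPKM in old Ly-HSCs and were all listed at 0 in young My-HSCs. In library 1 the eosinophil peroxidase gene Epx led this sum, at 22.2 FPKM, and in library 2 the mast cell protease Cpa3, at 11.02 FPKM. The 8 measured B-lineage markers summed to 6.17 to 26.7 FPKM in old Ly-HSCs and 2.93 to 26.1 FPKM in young My-HSCs. Old My-HSC library 1, used in the other comparisons below, held mature transcripts too, with 83.8 FPKM of granulocyte markers against 6.14 and 4.56 in old My-HSC libraries 2 and 3, and 113.6 FPKM of erythroid markers against 13.4 and 20.97. The part of these transcripts in the results was not tested, and results that bear on these cells are given with and without old Ly-HSC library 1. All 30 measured stem cell identity genes passed the filter.

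Only 5 genes were called between old Ly-HSCs and young My-HSCs, 0.0485% of those tested. The 4 that were higher in old Ly-HSCs, 0.0388% of those tested, were Aldh1a1, Cd74, Mab21l2 and Eya4. The 1 higher in young My-HSCs, 0.0097%, was Fgd5. An unadjusted p under 0.05 was reached by 930 genes, or 9.02%. The 3 old Ly-HSC values lay wholly above the 3 young My-HSC values at 917 genes (8.89%) and wholly below them at 748 (7.25%), together 16.1% of those tested. The median gene differed by 0.04 on the log2 scale, and 53.5% of genes were higher in old Ly-HSCs. Without old Ly-HSC library 1, 5911 of the 10311 genes were higher in old Ly-HSCs, against 5520 with it. The old Ly-HSC libraries then lay wholly above at 1362 genes and wholly below at 1040. Counts without that library below have these as their background.

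Aldh1a1 encodes a retinaldehyde dehydrogenase that makes retinoic acid. It stood at 126.6, 163.3 and 160.1 FPKM in old Ly-HSC libraries 1, 2 and 3, and at 37.5, 50.4 and 40.1 FPKM in those of young My-HSCs. The ranges were far apart, and Aldh1a1 was 3.46-fold higher in old Ly-HSCs (log2 fold change 1.79 ± 0.19 SE, BH-adjusted p = 0.0338, limma). Young Ly-HSCs held still less of it, at 29.8, 5.89 and 13.8 FPKM, while old My-HSCs held 137.8, 243.3 and 187.4 FPKM, so both old groups exceeded both young groups in every library.

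Cd74 encodes the invariant chain that guides class II histocompatibility molecules to the compartments where they load peptide. Its level was 175.1, 273.8 and 185.8 FPKM in old Ly-HSCs against 36.7, 52.0 and 64.2 FPKM in young My-HSCs, a 4.11-fold difference (log2 fold change 2.04 ± 0.24 SE, BH-adjusted p = 0.0404, limma). Old My-HSCs, at 170.2, 160.7 and 125.0 FPKM, and young Ly-HSCs, at 36.6, 38.4 and 47.4 FPKM, divided by age in the same way.

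Eya4 encodes an eyes-absent family protein that acts as a coactivator and a phosphatase. It stood at 23.01, 24.7 and 30.9 FPKM in old Ly-HSCs against 0.195, 2.61 and 0.962 FPKM in young My-HSCs (log2 fold change 3.73 ± 0.48 SE, BH-adjusted p = 0.0469, limma). Mab21l2, a gene of the male-abnormal-21 family with roles in eye and body wall development, stood at 15.7, 9.43 and 18.2 FPKM in old Ly-HSCs and was listed at 0 in every young My-HSC library (BH-adjusted p = 0.0404, limma). No fold is given for Mab21l2 because its comparison group is at 0.

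Fgd5 ran the other way. It encodes an exchange factor for the GTPase Cdc42 and is a widely used reporter locus for hematopoietic stem cells. Its level was 23.7, 25.5 and 25.1 FPKM in old Ly-HSCs against 65.7, 61.3 and 72.3 FPKM in young My-HSCs, 2.61-fold higher in the young My-HSCs (log2 fold change -1.39 ± 0.18 SE, BH-adjusted p = 0.0469, limma). Young Ly-HSCs were intermediate at 42.9, 42.4 and 38.1 FPKM and old My-HSCs stood at 61.0, 60.4 and 59.8 FPKM. Old Ly-HSCs were thus the lowest of the 4 groups, with no overlap with any other.

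**Figure D1:**
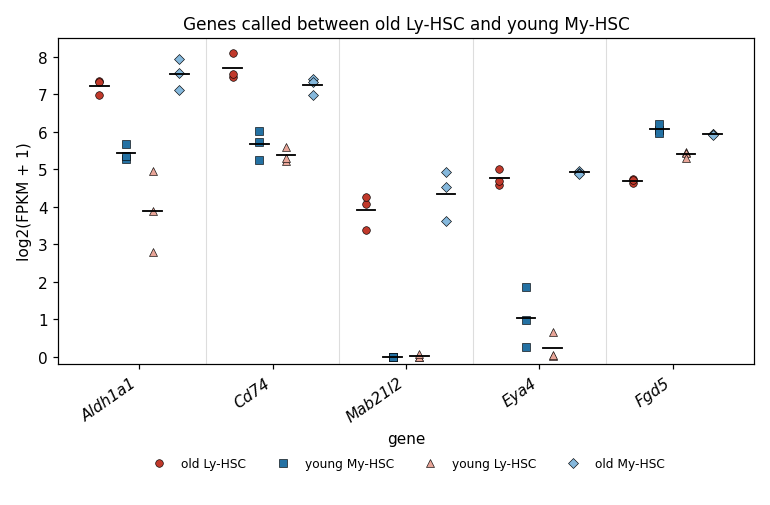
Level of the 5 called genes as log2(FPKM + 1) in each library of the 4 groups; each point is a library, and the black line is the mean of 3 libraries. Aldh1a1, Cd74, Mab21l2 and Eya4 lie higher in both old groups, while Fgd5 is lowest in old Ly-HSCs, at 23.7 to 25.5 FPKM.

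On GRCm38 with the GENCODE M21 annotation, Aldh1a1 (ENSMUSG00000053279.6) lies on chromosome 19 from 20492715 to 20643465, Cd74 (ENSMUSG00000024610.14) on chromosome 18 from 60803848 to 60812652, and Eya4 (ENSMUSG00000010461.14) on chromosome 10 from 23102963 to 23350786. Mab21l2 (ENSMUSG00000057777.4) lies on chromosome 3 from 86545581 to 86548629 and Fgd5 (ENSMUSG00000034037.14) on chromosome 6 from 91978878 to 92076004. The values are per gene and name no exon.

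The calls sat near the threshold. Leaving out any 1 of the 6 libraries, old Ly-HSC library 1 among them, left 0 genes called by limma, with 605 to 1038 genes at an unadjusted p under 0.05. Without old Ly-HSC library 1 the differences were 1.91 for Aldh1a1 (BH-adjusted p = 0.0951), 2.16 for Cd74 (BH-adjusted p = 0.166), 3.81 for Eya4 (BH-adjusted p = 0.182) and -1.36 for Fgd5 (BH-adjusted p = 0.166), on the log2 scale. A pseudocount of 0.1 also ended the 5 calls, while median-of-ratios scaling returned the same 5 genes.

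The genes next in p did not pass. Plek, which encodes the platelet protein pleckstrin, stood at 112.2, 76.5 and 61.5 FPKM in old Ly-HSCs against 22.2, 23.5 and 15.8 FPKM in young My-HSCs (BH-adjusted p = 0.0512, limma). C130026I21Rik stood at 27.4, 23.9 and 9.18 against 0.051, 0.880 and 0.047 FPKM (BH-adjusted p = 0.0536, limma). Dstn, which encodes the actin-depolymerizing protein destrin, stood at 118.8, 64.0 and 72.5 against 23.5, 26.5 and 24.1 FPKM (BH-adjusted p = 0.0609). In each of these genes the groups were apart and old Ly-HSC library 1 was the highest. Higher in young My-HSCs were Igf2bp2, an RNA-binding protein of fetal and stem cells, at 1.14, 0.611 and 2.02 against 23.2, 11.9 and 19.1 FPKM (BH-adjusted p = 0.0609), and Nes, the intermediate filament nestin, at 0, 0.267 and 0.071 against 7.98, 5.93 and 6.57 FPKM (BH-adjusted p = 0.119).

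The other diagonal of the design, old My-HSCs against young Ly-HSCs, holds the same age contrast with the sorted fractions exchanged, and shares no library with the comparison above. It called 91 of 10274 genes, 0.886%, of which 80 were higher in old My-HSCs (0.779%) and 11 in young Ly-HSCs (0.107%). Aldh1a1, Cd74, Eya4 and Mab21l2 were called there too, all 4 higher in the old cells. These calls depended on single libraries: leaving out any 1 old My-HSC library, library 1 among them, left 0 genes called in either direction, leaving out young Ly-HSC library 2 left 1 and 0, and leaving out young Ly-HSC library 3 left 7 and 0. With the replicate number as a block they were 3 and 0. Fgd5 was not, and its difference there had the opposite sign, at 0.55 ± 0.18 SE on the log2 scale (BH-adjusted p = 0.206).

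Of the 80 genes called higher in old My-HSCs, 73 were tested between old Ly-HSCs and young My-HSCs. There, 48 were higher and 25 lower in old Ly-HSCs, with a median log2 difference of 0.31, beside 0.04 over all genes tested. At 19 of the 73, or 26.0%, the old Ly-HSC libraries lay wholly above those of young My-HSCs, beside 8.89% of all tested genes, and at 8, or 10.96%, wholly below, beside 7.25%. At the remaining 46 the libraries overlapped. The same-numbered libraries of the old groups deviated together, with r of 0.177, 0.204 and 0.158 across genes, so the diagonals are not fully independent. Of the 11 genes called higher in young Ly-HSCs, 8 were higher and 3 lower in old Ly-HSCs than in young My-HSCs.

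The diagonals were also set side by side, for genes whose libraries did not overlap in either. In old My-HSCs against young Ly-HSCs alone, libraries were apart and higher in old My-HSCs at 14.6% of genes and lower at 7.5%. At 168 genes the old cells were higher in both diagonals, and at 73 they were lower in both. At 66 genes the Ly-HSCs were higher in both diagonals, and at 108 the My-HSCs were. These counts are 1.68%, 0.729%, 0.659% and 1.08% of the 10013 genes tested in both. Of the 886 genes apart and higher in old Ly-HSCs, 19.0% were apart and higher in old My-HSCs and 7.45% in young Ly-HSCs. Of the 724 apart and higher in young My-HSCs these shares were 14.9% and 10.1%, and of all 10013 genes 13.98% and 7.66%. The 66 and 108 genes were thus near the share of all genes, and nothing is read from their number. A model over all 12 libraries, fitted with limma to the same 10311 genes, tested age (old minus young) and fraction (Ly-HSC minus My-HSC). It took the 12 libraries as independent, although same-numbered old libraries deviated together. Its age contrast is also one between the sources of the mice. It called 83 genes for age, 0.805%, of which 73 were higher in old cells (0.708%) and 10 in young cells (0.097%). It called 47 for fraction, 0.456%, of which 10 were higher in Ly-HSCs (0.097%) and 37 in My-HSCs (0.359%). These contrasts contain the 6 libraries compared here, so the values of their genes below are a description.

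**Figure D2:**
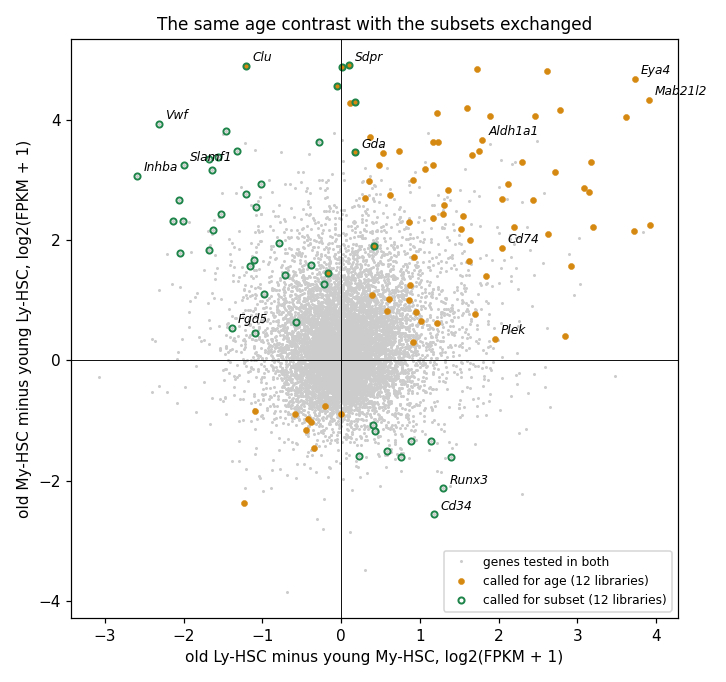
Difference between old Ly-HSCs and young My-HSCs (x axis) against that between old My-HSCs and young Ly-HSCs (y axis), both in log2(FPKM + 1); each point is a gene tested in both, with genes called for age (filled) or for fraction (open, labelled subset) in the 12-library model marked. Eya4, Mab21l2 and Aldh1a1 lie at upper right, Vwf and Slamf1 at upper left, Runx3 and Cd34 at lower right, and Gda and Sdpr near 0 on the x axis.

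Of the 168 genes higher in old cells in both diagonals, 50 were called for age. Of all tested genes 0.805% were called for age, and nothing is read from the difference because both selections used the same libraries. Besides the 4 called genes the 50 include Bmpr1a, which encodes a receptor of bone morphogenetic proteins. It stood at 11.1, 6.44 and 6.52 FPKM in old Ly-HSCs against 0, 0.513 and 0.571 in young My-HSCs (age adjusted p = 0.000428, limma). Rorb, a nuclear receptor, stood at 3.51, 4.68 and 6.03 against 0.073, 0.077 and 0.331 FPKM (age adjusted p = 0.000428). Plscr2, a phospholipid scramblase, stood at 5.89, 14.2 and 14.9 against 0, 2.28 and 1.18 FPKM (age adjusted p = 0.000428). In all 3 genes the groups were apart, and in none did the 6 libraries alone pass (BH-adjusted p = 0.141, 0.225 and 0.241).

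Selp, the gene of the adhesion receptor P-selectin, was graded. It stood at 25.5, 39.7 and 45.5 FPKM in old Ly-HSCs, at 2.46, 5.38 and 12.5 FPKM in young My-HSCs and at 86.8, 106.7 and 110.9 FPKM in old My-HSCs (age adjusted p = 0.00302, limma). Old Ly-HSCs thus lay above all young My-HSC libraries and below all old My-HSC libraries. Between old Ly-HSCs and young My-HSCs alone Selp did not pass (BH-adjusted p = 0.174, limma). Over the 73 genes called as higher in old cells, old Ly-HSC libraries lay wholly above those of young My-HSCs at 53, overlapped them at 19 and lay wholly below at 1. Of all tested genes 8.89% lay wholly above and 7.25% wholly below, and nothing is read from the difference because the age calls used these libraries. The age calls of Eya4, Mab21l2, Cd74, Aldh1a1, Bmpr1a, Rorb, Plscr2 and Selp held in 12 of 12 fits that each left out 1 library.

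A second group of genes was called for fraction, and those named first were lower in old Ly-HSCs than in young My-HSCs. Age and the source of the mice differ between these groups as well. Slamf1 encodes CD150, the antigen that divided the fractions, so its difference was set by the sort. It stood at 1.78, 8.33 and 6.47 FPKM in old Ly-HSCs, against 34.0, 20.9 and 15.01 FPKM in young My-HSCs (fraction adjusted p = 0.00778, limma). Vwf, which encodes von Willebrand factor and marks platelet-primed stem cells, stood at 7.66, 4.61 and 3.61 FPKM against 36.6, 24.6 and 27.6 FPKM (fraction adjusted p = 0.00461). In old My-HSCs it reached 35.3, 48.7 and 44.2 FPKM and in young Ly-HSCs 2.03, 5.71 and 0.143 FPKM. Old Ly-HSCs thus shared no value of Vwf with either My-HSC group and overlapped young Ly-HSCs. Between old Ly-HSCs and young My-HSCs alone neither Slamf1 nor Vwf passed (BH-adjusted p = 0.314 and 0.0609, limma).

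Tns2, an adaptor of focal adhesions, was also lower in old Ly-HSCs, at 15.5, 14.7 and 19.5 FPKM against 74.5, 46.5 and 48.2 FPKM in young My-HSCs (fraction adjusted p = 0.0155, limma). Inhba, which encodes the activin A subunit, stood at 3.77, 0.190 and 1.34 against 11.6, 14.1 and 14.1 FPKM (fraction adjusted p = 0.00548). Mllt3, a chromatin reader that supports stem cell maintenance, stood at 23.4, 20.9 and 22.8 against 48.1, 43.1 and 56.1 FPKM (fraction adjusted p = 0.0254, and 0.0617 with the replicate number as a block, which ends the call). Between old Ly-HSCs and young My-HSCs alone none of Tns2, Inhba and Mllt3 passed (BH-adjusted p = 0.0609, 0.219 and 0.141, limma). Of the 37 genes called as higher in My-HSCs, old Ly-HSC libraries lay wholly below those of young My-HSCs at 27, overlapped them at 9 and lay wholly above at 1, beside 7.25% wholly below and 8.89% wholly above among all tested genes. These calls used the same libraries.

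The reverse held for genes called as higher in Ly-HSCs, all 10 of which lay wholly higher in old Ly-HSCs than in young My-HSCs. Of all tested genes 8.89% lay wholly higher, and nothing is read from the difference because the fraction calls used these libraries. Cd34, a sialomucin of progenitors that is low on the most primitive mouse stem cells, stood at 34.3, 42.6 and 34.0 FPKM in old Ly-HSCs against 9.34, 20.6 and 19.7 FPKM in young My-HSCs (fraction adjusted p = 0.00778, limma). Runx3, a runt-domain transcription factor, stood at 30.0, 37.0 and 40.3 against 20.8, 12.7 and 10.0 FPKM (fraction adjusted p = 0.00461). Sox4, a transcription factor needed for early B-cell development, stood at 194.1, 178.6 and 147.3 against 113.3, 94.9 and 95.4 FPKM (fraction adjusted p = 0.0107). Cd37, a tetraspanin of leukocytes, stood at 43.6, 32.7 and 38.7 against 12.3, 9.98 and 21.5 FPKM (fraction adjusted p = 0.0256). None of Cd34, Runx3, Sox4 and Cd37 was called for age, with adjusted p of 0.255, 0.401, 0.312 and 0.905. Nor did any of them pass between old Ly-HSCs and young My-HSCs alone (BH-adjusted p = 0.355, 0.248, 0.225 and 0.225, limma).

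The fraction calls of Fgd5, Vwf, Slamf1, Inhba, Cd34, Runx3 and Sox4 held in 12 of 12 fits without 1 library. Those of Tns2, Mllt3 and Cd37 held in 8, 5 and 5. Leaving out an old Ly-HSC library changed the 47 fraction calls to 18, 18 and 20 for libraries 1, 2 and 3, and leaving out old My-HSC library 1, 2 or 3 changed them to 36, 15 and 16. They numbered 95 and 116 when young Ly-HSC library 1 or 2 was dropped. The 83 age calls became 48 and 47 when old Ly-HSC library 2 or 3 was left out. With 1 of the 3 old My-HSC libraries left out in turn they became 54, 42 and 50, and with 1 of the 3 young Ly-HSC libraries left out in turn 127, 189 and 135.

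**Figure D3:**
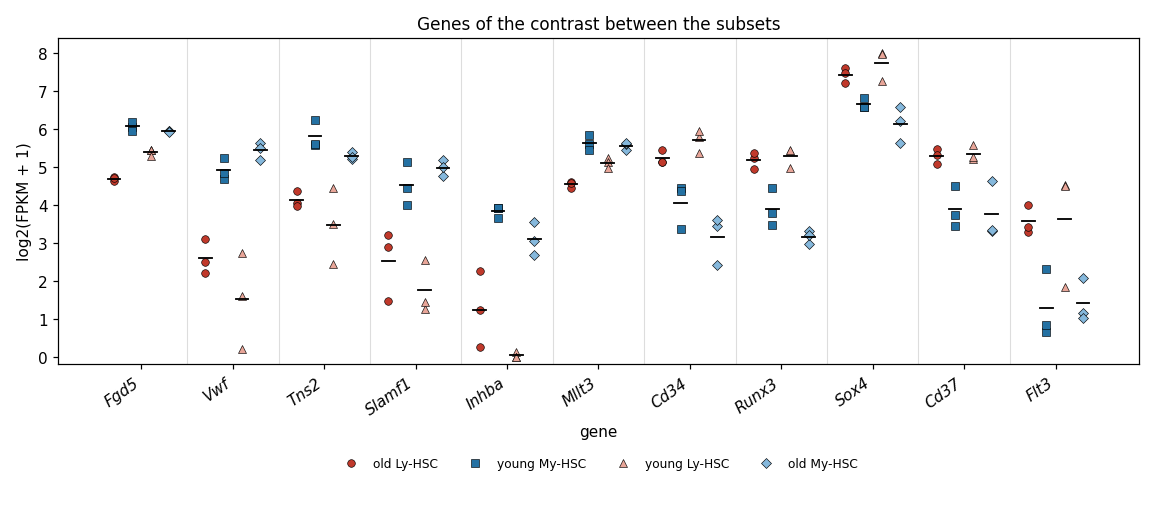
Level as log2(FPKM + 1) of 11 genes in each library of the 4 groups; each point is a library, and the black line is the mean of 3 libraries. From Fgd5 to Mllt3 old Ly-HSCs lie below young My-HSCs, and from Cd34 to Flt3 above them; Flt3 did not pass for fraction (BH-adjusted p = 0.0834).

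Another group of genes was called both for age, higher in old cells, and for fraction, higher in My-HSCs. There were 8, namely Gda, Sdpr, Slc17a8, Clca3a1, Sult1a1, Mmrn1, Rpn1 and Clu, and they were singled out after their values were seen. Between old Ly-HSCs and young My-HSCs these differences have opposite signs by construction of the contrasts. Gda, guanine deaminase, stood at 41.8, 32.9 and 36.7 FPKM in old Ly-HSCs and at 32.5, 30.9 and 34.0 FPKM in young My-HSCs. Its log2 difference was 0.18, with a 95% interval of -0.26 to 0.62 from limma. Old My-HSCs held 111.6, 104.6 and 109.7 FPKM and young Ly-HSCs 13.2, 11.4 and 4.62 FPKM, so old Ly-HSCs and young My-HSCs overlapped at a level between the other groups.

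Sdpr, the caveolar protein cavin-2, stood at 36.5, 42.8 and 39.8 FPKM in old Ly-HSCs and at 32.3, 34.7 and 45.2 FPKM in young My-HSCs (difference 0.10, interval -0.36 to 0.55). It reached 107.4, 152.1 and 145.9 FPKM in old My-HSCs and 0.565, 7.38 and 5.96 FPKM in young Ly-HSCs. Clca3a1, a chloride channel accessory protein, stood at 27.9, 43.4 and 34.0 against 44.8, 38.3 and 26.5 FPKM (difference -0.05, interval -0.63 to 0.53). Slc17a8, a vesicular glutamate transporter, stood at 4.04, 8.89 and 9.56 against 9.83, 6.73 and 5.15 FPKM (difference 0.01, interval -0.98 to 1.00). These intervals still allow differences of up to 1.00 on the log2 scale, so the levels are not shown to be equal.

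Mmrn1, the platelet and endothelial protein multimerin-1, stood at 162.3, 154.0 and 167.6 FPKM in old Ly-HSCs and at 164.2, 194.6 and 183.1 FPKM in young My-HSCs (difference -0.16, interval -0.48 to 0.16). Sult1a1, a sulfotransferase, had a difference of 0.18 with an interval of -0.61 to 0.96. The remaining members were not alike in this way. Clu, the chaperone clusterin, stood at 0.818, 1.29 and 0.558 FPKM in old Ly-HSCs and wholly higher, at 2.41, 4.85 and 2.97 FPKM, in young My-HSCs (difference -1.204, interval -2.33 to -0.08, BH-adjusted p = 0.513). Rpn1, a subunit of the oligosaccharyltransferase, stood wholly higher in old Ly-HSCs, at 61.2, 48.5 and 49.4 against 37.0, 41.7 and 38.6 FPKM (difference 0.42, BH-adjusted p = 0.544). Both calls of Gda, Sdpr, Slc17a8 and Clca3a1 held in 12 of 12 fits without 1 library, while the fraction calls of Sult1a1 and Rpn1 held in 4 and 3 (that of Rpn1 had an adjusted p of 0.087 with the replicate block), and the age calls of Mmrn1 and Clu in 4 and 9.

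**Figure D4:**
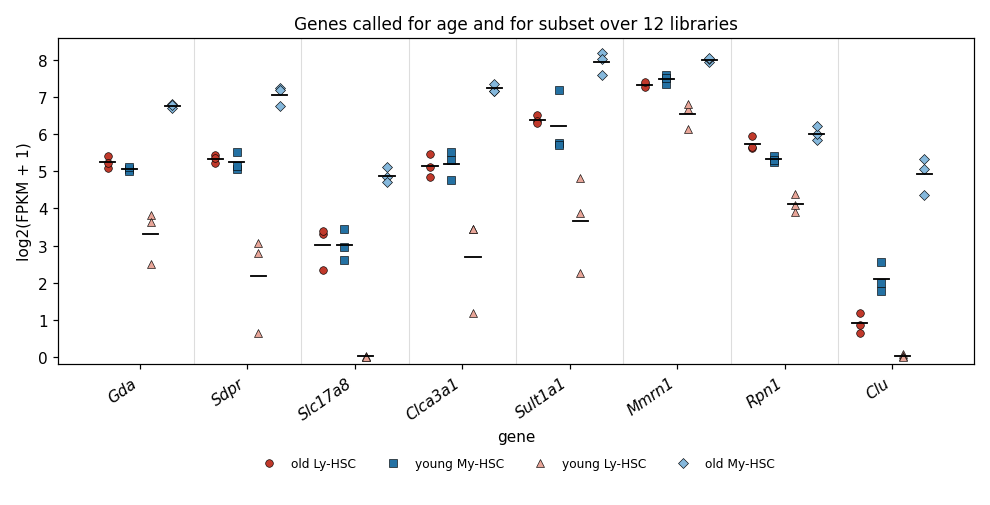
Level as log2(FPKM + 1) of the 8 genes called both for age and for fraction in the 12-library model; each point is a library, and the black line is the mean of 3 libraries. In Gda, Sdpr, Slc17a8, Clca3a1, Sult1a1 and Mmrn1 the libraries of old Ly-HSCs and young My-HSCs overlap, between old My-HSCs above and young Ly-HSCs below.

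Genes of class II antigen presentation, which display extracellular peptides to helper T cells, had the highest median difference among the gene lists examined by function or pathway. All 9 tested members were higher in old Ly-HSCs, with a median log2 difference of 1.89, and at 8 of 9 the old Ly-HSC libraries lay wholly above those of young My-HSCs, beside 8.89% of all tested genes. Cd74 was the 1 called member. The higher level was not particular to old Ly-HSCs. In old My-HSCs against young Ly-HSCs 7 of 9 were higher, with a median of 1.27, beside 62.0% and 0.20 over all genes. The measured members summed to 293.6 to 404.4 FPKM in old My-HSCs and 133.7 to 173.95 FPKM in young Ly-HSCs. The beta chain gene H2-Ab1 stood at 60.5, 90.0 and 55.8 FPKM against 12.1, 31.0 and 14.0 (BH-adjusted p = 0.141, limma). The alpha chain gene H2-Aa stood at 70.0, 72.0 and 32.3 against 0, 7.53 and 7.79 FPKM (BH-adjusted p = 0.203), and H2-Eb1 at 41.7, 75.7 and 37.3 against 0, 4.42 and 11.6 FPKM (BH-adjusted p = 0.225). The listed 0 of H2-Aa and H2-Eb1 is in young My-HSC library 1.

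Ciita, the coactivator that switches on class II genes, stood at 14.7, 8.77 and 7.07 FPKM in old Ly-HSCs against 4.20, 0.700 and 2.04 FPKM in young My-HSCs (BH-adjusted p = 0.392). The peptide-exchange subunit H2-DMb1 was the member whose libraries overlapped, at 5.62, 17.9 and 15.3 against 10.4, 16.3 and 6.82 FPKM. Ctss, the protease that trims the invariant chain, was highest in old Ly-HSC library 1, at 45.6 against 10.4 and 14.8 FPKM in the others. Without that library all 9 were still higher, with 8 apart and a median of 1.96. Of all 10311 genes 1362 were apart and higher in that setting. Macrophage and monocyte markers, of which 9 were measured, summed to 27.2, 4.62 and 3.09 FPKM in old Ly-HSCs and 1.195 to 3.45 in young My-HSCs. Their part in the result was not tested.

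The class II promoters are shown because these genes stood higher together and because a shared promoter layout is the known route of their joint control, through X-box and Y-box elements. Sequences are from RefSeq on GRCm38.p6, 5′ to 3′ on the strand of the gene, and each covers 130 bases before the start. Capitals mark the letters GCAAC and, 10 to 40 bases further on, TGATTGG. H2-Aa is shown for chr17:34287824-34287953 (minus strand), H2-Eb1 for chr17:34305737-34305866 (plus strand) and H2-Ob for chr17:34238775-34238904 (plus strand).
H2-Aa: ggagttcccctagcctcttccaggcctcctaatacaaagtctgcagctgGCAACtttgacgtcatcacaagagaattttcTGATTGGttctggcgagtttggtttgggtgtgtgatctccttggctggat
H2-Eb1: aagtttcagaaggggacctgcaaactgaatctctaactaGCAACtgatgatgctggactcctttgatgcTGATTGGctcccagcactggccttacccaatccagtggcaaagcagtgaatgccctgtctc
H2-Ob: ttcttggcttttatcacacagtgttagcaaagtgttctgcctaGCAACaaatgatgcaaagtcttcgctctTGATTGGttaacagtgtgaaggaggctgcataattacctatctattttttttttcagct
The pair was searched on both strands of 300 bases, from 250 before to 50 after the start, with letters chosen after the sequences were seen. It was found in 5 of the 9 listed class II genes in the promoter table and in 0.289% of 32851 promoters, and TGATTGG alone in 7 of 9 and in 7.82%. H2-Ob, one of the 3 shown, stood at 25.4, 6.27 and 8.49 FPKM in old Ly-HSCs against 0, 5.58 and 0.284 FPKM in young My-HSCs (BH-adjusted p = 0.413). A match describes the letters and is not evidence of a bound site.

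**Figure D5:**
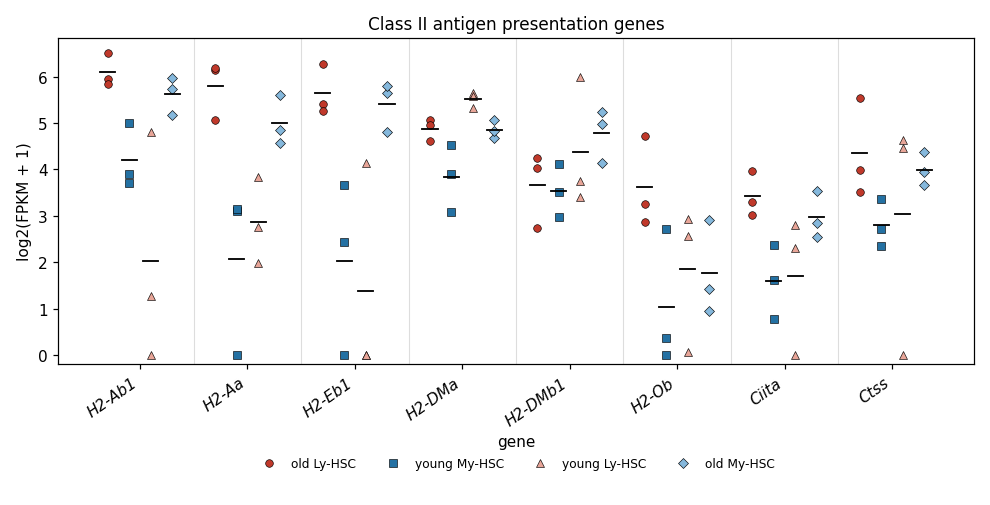
Level as log2(FPKM + 1) of 8 class II antigen presentation genes in each library of the 4 groups; each point is a library, and the black line is the mean of 3 libraries. Old Ly-HSCs lie wholly above young My-HSCs in every gene drawn except H2-DMb1, and H2-DMa is highest in young Ly-HSCs.

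Class I presentation genes were shifted less. All 13 tested were higher in old Ly-HSCs, with a median of 0.40, none was called, and the groups were apart and higher at 5, beside 8.89% of all tested genes. H2-Q7 stood at 199.1, 267.1 and 241.2 against 114.7, 121.1 and 135.4 FPKM (BH-adjusted p = 0.127, limma), and the immunoproteasome subunit Psmb8 at 84.6, 85.9 and 84.99 against 31.6, 52.6 and 43.5 FPKM (BH-adjusted p = 0.203). Values of class I and class II genes are uncertain, since no source used here says how reads shared by near-identical copies were counted. Without old Ly-HSC library 1, 12 of 13 were higher. Interferon response genes had 25 of 39 higher, a median of 0.10 and no called member.

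Stem cell identity genes lay lower in old Ly-HSCs as a list, with 22 of 30 lower, a median of -0.27 and 1 called member, Fgd5. In old My-HSCs against young Ly-HSCs 20 of 30 were higher in old My-HSCs, with a median of 0.32. Of all genes tested in both diagonals 62.0% were higher in old My-HSCs, with a median of 0.20. The 20 of 30 is near that share, and nothing is read from it. The median old minus young difference of the list over all libraries was -0.04, beside 0.12 over all genes. Old Ly-HSC libraries lay wholly below at 9 of 30 and wholly above at 1, beside 7.25% and 8.89% of all genes. Among those apart was Ctnnal1, an alpha-catulin that marks stem cells, at 8.62, 7.92 and 6.74 against 27.4, 22.01 and 32.5 FPKM (BH-adjusted p = 0.119, limma). Without old Ly-HSC library 1 the median was -0.40 and 20 of 30 were lower, and without young My-HSC library 2 it was -0.36. Slamf1, whose antigen divided the fractions, and Cd34, which was called for fraction, belong to this list.

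Lymphoid priming genes had 11 of 16 tested members higher in old Ly-HSCs, a median of 0.19 and none called. Without old Ly-HSC library 1 they had 9 of 16 higher, near the share of all genes, 5911 of 10311. With all 6 libraries the groups were apart at 6 of 16, higher in old Ly-HSCs at each, beside 8.89% of all tested genes. They included Flt3, the receptor CD135 on early lymphoid progenitors, at 15.1, 8.69 and 9.73 against 0.571, 0.792 and 4.01 FPKM (BH-adjusted p = 0.270, limma). The sort gated against CD135 protein in both groups. The recombination genes Rag1 and Rag2 and the receptor Il7r did not reach the filter, with at most 0.13 FPKM in these 6 libraries.

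Myeloid priming genes had 8 of 12 higher in old Ly-HSCs, with a median of 0.59 and none called. The groups were apart and higher in old Ly-HSCs at 5 of 12, beside 8.89% of all tested genes, and apart and lower at 0. Csf3r, the receptor of granulocyte colony-stimulating factor, stood at 139.1, 77.2 and 73.2 against 36.0, 31.8 and 42.4 FPKM (BH-adjusted p = 0.182, limma), and the integrin Itgam at 160.0, 19.4 and 28.3 against 0, 6.69 and 3.29 FPKM (BH-adjusted p = 0.248). Both were highest in old Ly-HSC library 1. Without this library 8 of 12 were still higher, with a median of 0.38. Then 5 were apart and higher and 1 apart and lower, beside 1362 and 1040 of all 10311 genes. Granulocyte markers were also highest in that library, and their part in the result was not tested.

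The literature list of stem cell ageing genes was split. Of 38 tested members 24 were higher and 14 lower in old Ly-HSCs, with a median of 0.18. Old Ly-HSC libraries lay wholly above at 12 and wholly below at 7, together 19 of 38, beside 16.1% of all genes. Aldh1a1 was the 1 called member. In old My-HSCs against young Ly-HSCs 35 of the 37 tested were higher, with a median of 2.99, beside 62.0% and 0.20 over all genes. Platelet and megakaryocyte genes were split too, with 10 of 18 higher and a median of 0.12, which was -0.10 without young My-HSC library 2. They hold both Plek and Selp, on the old Ly-HSC side, and Vwf and Clu, on the young My-HSC side. Some genes are in both lists.

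Mitosis genes had 26 of 28 members higher in old Ly-HSCs, a median of 0.94 and none called, but the groups were apart and higher at 3 of 28, a share near the 8.89% of all tested genes. Their summed level was 561.0, 364.6 and 188.2 FPKM in old Ly-HSC libraries 1, 2 and 3, against 105.9, 228.7 and 196.8 FPKM in young My-HSCs, so it overlapped. The kinase Plk1 stood at 15.8, 12.7 and 4.66 against 0.480, 5.81 and 0.442 FPKM (BH-adjusted p = 0.459, limma). Of 38 replication genes 30 were higher (median 0.33), as were 40 of 47 oxidative phosphorylation genes (median 0.42), and neither list held a called gene. The erythroid markers given above also stood highest in old Ly-HSC library 1, and their part was not tested. Without this library the medians were 0.78, 0.23 and 0.36. DNA repair genes had 18 of 40 higher, and 27 of 40 without old Ly-HSC library 1.

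Across the 10311 genes, old Ly-HSC libraries correlated with young My-HSC libraries at r of 0.702 to 0.894, with a median of 0.807 over 9 pairs. They correlated with young Ly-HSCs at 0.661 to 0.858, with a median of 0.752, and with old My-HSCs at 0.814 to 0.935, with a median of 0.870. Each of the 3 old Ly-HSC libraries had the same order of medians, old My-HSCs first, young My-HSCs next and young Ly-HSCs last. Within groups r was 0.836 to 0.947 in old Ly-HSCs, 0.792 to 0.873 in young My-HSCs and 0.679 to 0.769 in young Ly-HSCs. These values describe libraries that differ in the share of genes listed at 0, which was 25.04% to 34.1% in young Ly-HSCs, and its part in the order was not tested. Between libraries of one group, the SD of log2(FPKM + 1) had a median over genes of 0.34 for old Ly-HSCs, 0.42 for young My-HSCs and 0.68 for young Ly-HSCs.

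The sort antigens were checked last. Slamf1 is given above. Ly6a, which encodes Sca-1, stood at 52.2, 30.4 and 11.7 FPKM in old Ly-HSCs and 16.9, 16.1 and 5.06 FPKM in young My-HSCs, and the groups overlapped (BH-adjusted p = 0.584, limma). Cd48 did not reach the filter, at 1.26, 10.9 and 0.594 against 0, 0.060 and 0 FPKM.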

How the data were processed

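RNA-seq of sorted mouse stem cells was read as FPKM values per gene and library, as normalized and deposited by the authors. Libraries were stranded (KAPA mRNA kit) and sequenced as paired ends, per the labels' protocols. Named without roles in the submitters' processing notes are the tools STAR, bcl2fastq 2.17 and DESeq2, and the build GRCm38 (mm10). No source used here gives the annotation, the gene filter or the handling of multi-mapped reads.

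Of 14143 genes, 14139 matched GENCODE M21 identifiers, which gave coordinates. With a pseudocount of 1, limma 3.58.1 in R 4.3.3 (intensity trend, two-sided, Benjamini-Hochberg) was fitted to the 6 libraries, with 4 residual and 5.52 prior degrees of freedom, then to the other 6, and to all 12 for age and fraction. The fit was tested on simulated data. Low values gave relative depth only where at least 100 ratios could be formed, at 1.06 and 1.07 in old Ly-HSC libraries 2 and 3 against 1.0 in old My-HSC library 2. No libraries held identical values. Named genes were the called genes, the 5 with the smallest p per direction, up to 4 per list, the sort antigens, and genes called in both diagonals. Other named genes, such as Dstn, Gda, further class II members and markers of mature cells, were chosen after their values were seen. The members and gene lists were chosen with earlier results of these data known. Alternatives were other pseudocounts, filters, scalings, fits and left-out libraries.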

Additional observations from a re-analysis of the deposited data

How the results depend on the processing

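Among the genes tested between old Ly-HSCs and young My-HSCs under these alternatives, no called or near-threshold gene changed direction; genes with differences near 0, such as Slc17a8, were compared by size only. The counts of genes called between old Ly-HSCs and young My-HSCs, 4 higher and 1 lower in old Ly-HSCs, became 0 and 0 with a pseudocount of 0.1 (limma, 862 genes at an unadjusted p under 0.05), with no filter (1016), as TPM (854), and without the libraries numbered 1 (887), and stayed at 0 in each fit without 1 library (605 to 1038). They became 7 and 3 with quantile normalization and 8 and 2 with the 12-library fit, and 1 (Mab21l2) and 1 (Nes) with no trend in the prior variance. The median over all genes ran from -0.02 to 0.07 over these settings. Replicate numbers did not pair the groups, with r of -0.026, 0.007 and 0.009 between the deviations of same-numbered libraries, and with the replicate number as a block 0 genes were called in either direction (859 at an unadjusted p under 0.05). For old My-HSCs against young Ly-HSCs the counts of 80 and 11 became 178 and 17 with a pseudocount of 0.1, 292 and 69 with the 12-library fit, and 3 and 0 with the replicate block. Without 1 library they ran from 0 to 80 and from 0 to 8. Age calls, 83 in all, ran from 42 to 189 and fraction calls, 47 in all, from 15 to 116 without 1 library. The median of stem cell identity genes ran from -0.40 to -0.21 without 1 library. Counts of list members without old Ly-HSC library 1 were chosen after seeing the data. The causes of these shifts were not tested. Depth is unknown for most libraries, so low values and values of 0 limit what can be said of weakly expressed genes.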

Other observations

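Among the genes called for age as higher in young cells in the 12-library model, all 10 were lower in old Ly-HSCs than in young My-HSCs, and at 8 the libraries were apart. Of all tested genes 7.25% lay wholly lower, and nothing is read from the difference because the age calls used these libraries. Ide, the insulin-degrading protease, stood at 24.0, 24.8 and 27.6 FPKM in old Ly-HSCs against 62.2, 51.0 and 53.8 FPKM in young My-HSCs (age adjusted p = 0.0268, limma with Benjamini-Hochberg adjustment). Between old Ly-HSCs and young My-HSCs alone Ide did not pass (BH-adjusted p = 0.126, limma).

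The gene lists not described above held no called member. Inflammation genes of the NF-kB pathway had 14 of 22 higher in old Ly-HSCs with a median log2 difference of 0.23, and immediate early genes 7 of 11 with a median of 0.41. DNA methylation enzymes had 7 of 13 higher with a median of 0.09. Cell cycle inhibitors and D cyclins had 5 of 11 higher with a median of -0.22, which was 0.01 without old Ly-HSC library 1. Adhesion and niche receptor genes were evenly divided, with 14 of 28 higher and a median of -0.10.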
